A study of Caenorhabditis elegans with 18 samples.

Results

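Wild-type larvae of the nematode Caenorhabditis elegans, strain N2, were compared after 30 min at 34 °C and at 20 °C. The comparison is between 6 of the 18 libraries of the series, 3 at each temperature, taken by their strain and temperature labels alone. All 18 libraries entered the filter on low counts, the scaling factors and the estimate of spread behind each test. Both groups were whole animals in the middle of the second larval stage, synchronised from eggs and raised on OP50 bacteria at 20 °C. For the 34 °C group, culture plates were sealed and placed under water in a warm bath, while the 20 °C group was harvested straight from its plates, so heat and submersion in a sealed plate cannot be told apart. No time for recovery is given between heating and harvest. N2 is the standard laboratory wild type and carries no transgene or mutation here. The series also holds the mutant hsf-1(sy441) and a strain of that mutant with an hsf-1::gfp transgene. Apart from the shared fit, the mutant is compared with N2 near the end, as a test of which heat responses differed.

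Heat unfolds proteins, and cells answer with chaperones, which bind unfolded chains and help them refold. In animals the transcription factor HSF-1 drives this answer by binding heat shock elements in promoters. Hsp70 proteins work with J-domain proteins, which deliver clients, and with exchange factors such as Hsp110, while Hsp90 finishes the folding of kinases and receptors. The small Hsp16 proteins of C. elegans hold unfolded proteins in a soluble form and are nearly silent without stress.

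The 6 N2 libraries held 18.2 to 28.7 M fragments. Levels are fragments of a gene per M fragments of its library (CPM), scaled between libraries with TMM factors, and a value written with ± is a mean with its SD over 3 libraries. A gene was called, and is said to have risen or fallen, where the adjusted p of edgeR's quasi-likelihood test was under 0.05 over the 14219 genes tested. In all 5457 (38.4%) were called, of which 2642 (18.6% of genes tested) rose and 2815 (19.8%) fell at 34 °C. With the replicate number as a block, 24.5% rose and 25.9% fell. A fit of the 6 N2 libraries alone called 3605 of 13091 genes, 1663 up and 1942 down. Scaling by library size alone moved the median over all genes by −0.27 on the log2 scale, and the split became 1067 (7.5%) up and 4603 (32.4%) down, so small changes are read against that shift, and counts with library size alone are given beside lists where it moves a count by over 1.5 times. Larger changes were unevenly split, with 346 genes (2.43%) at least 4-fold higher and 161 (1.13%) at least 4-fold lower. Replicate 3 stood further from the others at both temperatures: over log2 CPM of all genes its Pearson correlation with replicates 1 and 2 was 0.967 and 0.942 at 34 °C and 0.98 and 0.963 at 20 °C, while that of replicates 1 and 2 was 0.984 at 34 °C and 0.992 at 20 °C. Nothing in the labels states that the 3 libraries of a group were grown apart, and the tests may therefore reflect technical spread alone. In whole animals fewer cells of a type and less RNA per cell cannot be told apart.

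The genes that were nearly silent at 20 °C gave the sharpest rises. Located at 9317728 to 9327204 on chromosome I (build ce10), hsp-70 (C12C8.1) encodes an inducible Hsp70 and had 1005, 1432 and 1075 CPM in the 34 °C libraries, against 0.335, 0.364 and 0.594 CPM in the 20 °C libraries. The small heat shock gene hsp-16.2 (Y46H3A.3) had 3037, 3267 and 3335 CPM at 34 °C, against 0.335, 0.255 and 1.49 CPM at 20 °C. Its partner hsp-16.41 (Y46H3A.2) had 2825, 3287 and 3161 CPM at 34 °C, against 0.251, 0.328 and 1.09 CPM at 20 °C. The groups did not come near each other, and in all 3 genes the highest 20 °C library was replicate 3. The log2 fold changes were 11.41 (SE 0.33, adjusted p = 6.6e-12) for hsp-70, 12.24 (SE 1.43, adjusted p = 2e-05) for hsp-16.2 and 12.49 (SE 1.81, adjusted p = 0.00012) for hsp-16.41. The hsp-16 pair lies head to head within 1 locus of 4 genes on chromosome V, 1799725 to 1809467, and hsp-70 shares its locus with 1 other gene, so their counts depend on how reads were assigned within the locus.

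Of the 9 inducible Hsp70 and Hsp16 genes, 4 were tested and all 4 rose, where 18.6% of all genes rose. Genes nearly silent in N2 at 20 °C can pass the filter on low counts through heated libraries, so this count is no independent support. The other hsp-16 cluster on chromosome V was hardly measured. Its gene hsp-16.48 (T27E4.3) had 6, 11 and 12 fragments at 34 °C and 0, 1 and 0 at 20 °C, and hsp-16.49 (T27E4.9) had 3, 7 and 5 fragments at 34 °C and none at 20 °C, where the test's filter on low counts removed it. For hsp-16.1, hsp-16.11 and the Hsp70 genes F44E5.4 and F44E5.5, Cuffdiff gave a failed estimate in all 3 libraries at 34 °C. Its status there was HIDATA, the flag for a locus with too many fragments to process, and the values are listed at 0. In all 3 libraries at 20 °C the estimate was valid. A listed 0 in these 4 genes is therefore no measurement of their level under heat. Near-identical copies exist in both families, and reads shared between copies were not told apart.

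Outside these genes, small heat shock genes made a mixed group, with 5 of 10 tested members up and 0 down. Of all genes 18.6% rose and 19.8% fell. The median log2 fold change of the group was 0.50, against 0.02 for all genes. Members nearly silent at 20 °C, such as hsp-12.6 and hsp-16.21, can pass the filter on low counts through heated libraries. The count is therefore no independent support. In this group hsp-12.3 and hsp-12.6 encode unusually short members of the family. The level of hsp-12.6 (F38E11.2) was 2.02, 5.47 and 9.90 CPM at 34 °C, against 0.126, 0 and 0.099 CPM at 20 °C, and that of hsp-12.3 (F38E11.1) was 1.67, 2.76 and 2.94 CPM, against 0.126, 0.401 and 0.297 CPM. Both groups were fully apart in both genes. Another short member, hsp-12.1 (T22A3.2), rose to 13.9, 17.5 and 13.2 CPM at 34 °C, against 7.28, 9.98 and 9.45 CPM at 20 °C, with no overlap, a log2 fold change of 0.74 and an adjusted p of 0.017, which was 0.059 without replicate 1 at 20 °C, 0.073 without replicate 2 at 34 °C and 0.16 with library size alone. The remaining pair of called members depended on 1 library. The gene hsp-16.21 (F08H9.4) had 0.418, 0.102 and 20.1 CPM at 34 °C, against 0.0419, 0.0728 and 0 CPM at 20 °C, and sip-1 (F43D9.4), an embryonic small heat shock gene, had 2.51, 2.2 and 10.6 CPM, against 2.34, 1.49 and 1.78 CPM. Without replicate 3 of the 34 °C group 3 members of the list rose, and the log2 fold changes of hsp-16.21 and sip-1 were 2.4 and 0.33 in place of 7.19 and 1.44, neither called. The call of sip-1 was also lost without replicate 2 or 3 at 20 °C and with library size alone, with adjusted p-values of 0.12, 0.090 and 0.085. The more abundant hsp-25 (C09B8.6) did not pass the test, with 182 ± 45.9 CPM at 34 °C and 155 ± 20.2 CPM at 20 °C (log2 fold change 0.24, adjusted p = 0.21), while its adjusted p was 0.032 with replicates as a block and 0.045 without replicate 2 at 34 °C, and its log2 fold change was −0.04 with library size alone. The list had 3 members up with library size alone.

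**Figure D1:**
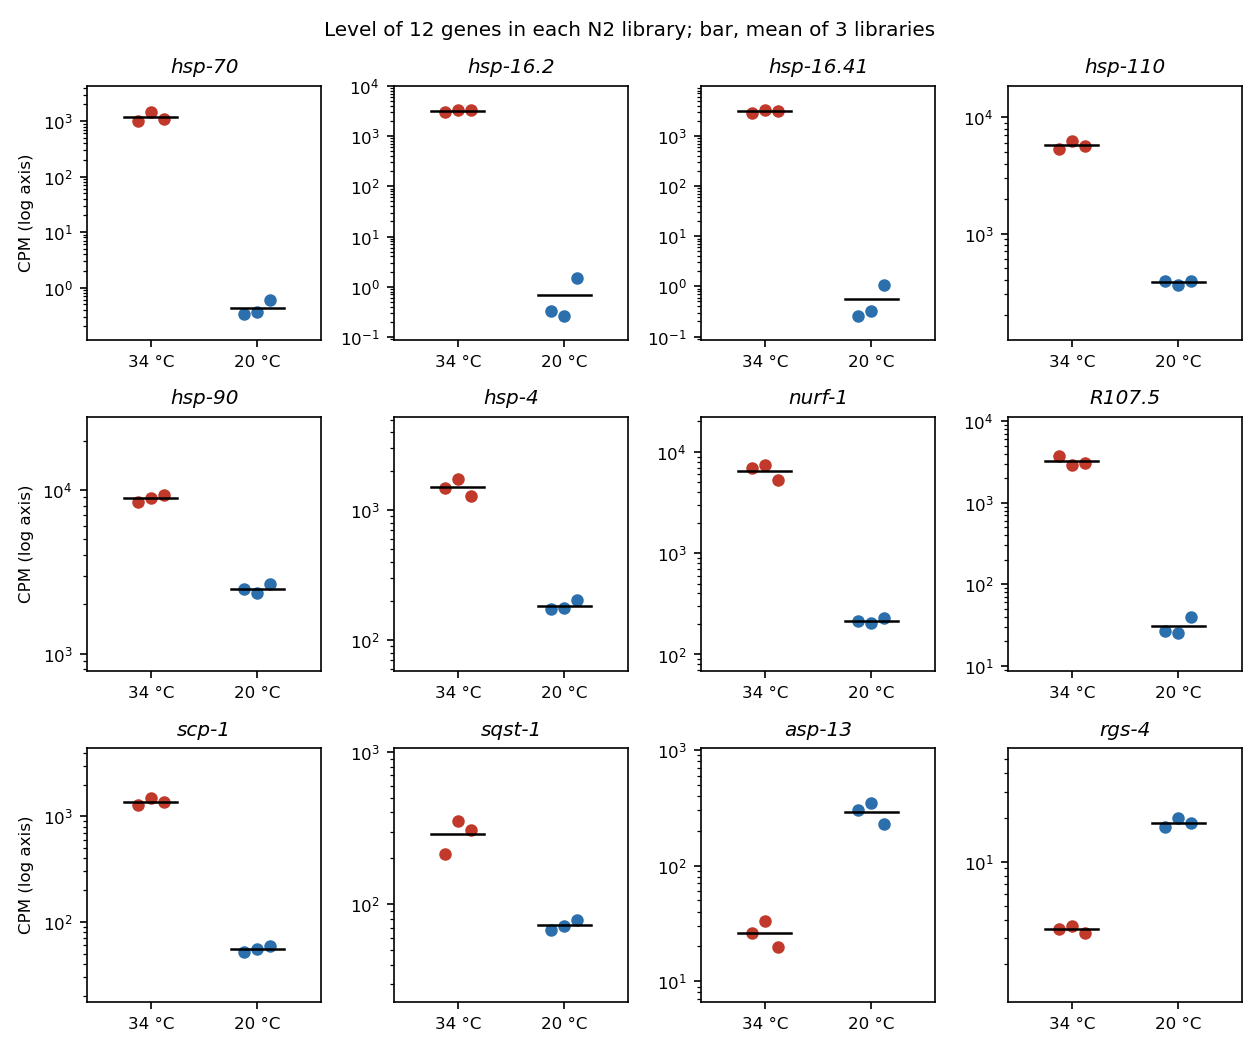
Level of 12 genes in each N2 library, in CPM on a logarithmic axis, with the 34 °C libraries left of the 20 °C libraries and a bar at each group's mean. The heat shock genes hsp-70, hsp-16.2 and hsp-16.41 lie at 1005 CPM or more at 34 °C and at 1.49 CPM or less at 20 °C, nurf-1 and R107.5 lie at 2908 CPM or more at 34 °C, and asp-13 and rgs-4 lie lower at 34 °C in every library.

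The constitutive machinery around Hsp70 and Hsp90 moved by smaller and unequal steps. The exchange factor Hsp110 is encoded by hsp-110 (C30C11.4) at 8443832 to 8446846 on chromosome III, which had 5311, 6207 and 5684 CPM at 34 °C, against 390, 360 and 393 CPM at 20 °C, which is 15.1-fold. The gene of Hsp90, hsp-90 (C47E8.5), had 8454, 8874 and 9309 CPM at 34 °C, against 2478, 2333 and 2645 CPM at 20 °C, which is 3.57-fold. The constitutive Hsp70 gene hsp-1 (F26D10.3) had 4492, 5190 and 5870 CPM at 34 °C, against 2728, 2586 and 2970 CPM at 20 °C, which is 1.88-fold. No library of one temperature overlapped the other in these 3 genes, and hsp-90 alone took 0.666 to 0.752% of all fragments at 34 °C and 0.223 to 0.268% at 20 °C.

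Among Hsp70 and its cytosolic partners 5 of 9 genes rose and 0 fell, where 18.6% of all genes rose and 19.8% fell. Besides hsp-110 and hsp-1, the members that rose were unc-23, a BAG domain gene, and the J-domain genes dnj-13 and dnj-19. The level of unc-23 (H14N18.1) was 562, 571 and 669 CPM at 34 °C, against 112.6, 95.9 and 110.4 CPM at 20 °C, and that of dnj-13 (F54D5.8) was 1029, 1253 and 1118 CPM, against 234, 221 and 304 CPM. Both share their locus with other genes. The partner genes hip-1 and chn-1, which encode an Hsp70-interacting protein and the CHIP ubiquitin ligase, did not pass the test, with log2 fold changes of 0.09 (SE 0.13) and 0.06 (SE 0.08), and of −0.17 and −0.21 with library size alone. The rise of dnj-19, a log2 fold change of 0.39, was not called with library size alone.

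In the Hsp90 group 4 of 9 genes rose and 1 fell, where 18.6% of all genes rose and 19.8% fell. The activator gene ahsa-1 had 381, 382 and 371 CPM at 34 °C, against 236, 225 and 249 CPM at 20 °C, and the log2 fold changes of fkb-6, an immunophilin gene, and daf-41, the p23 gene, were 0.41 and 0.36. The phosphatase gene pph-5 fell to 61.1 ± 4.89 CPM at 34 °C, against 80.8 ± 4.29 CPM at 20 °C (log2 fold change −0.40, adjusted p = 0.00045). Scaled by library size alone, fkb-6 and daf-41 lost their calls, 2 of the 9 rose and 3 fell, and without replicate 3 at 34 °C 2 fell. The adaptor gene sti-1, which links Hsp70 to Hsp90, had 157.6 ± 4.81 CPM at 34 °C and 154 ± 14.8 CPM at 20 °C, and cdc-37, the kinase adaptor gene, 70.6 ± 3.84 CPM at 34 °C and 68.8 ± 1.41 CPM at 20 °C. Their log2 fold changes were 0.04 each (SE 0.14 and 0.09), and with library size alone −0.24 and −0.23.

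The CCT chaperonin and prefoldin, which fold actin and tubulin, had 10 of 13 tested genes up and 0 down. Of all genes 18.6% rose and 19.8% fell. The median log2 fold change of the list was 0.28. Only pfd-5 (log2 fold change 0.62) and pfd-6 (0.56) stayed called with library size alone among the 10, where 1 member fell and the median was 0.01. Without replicate 1 of the 34 °C group 6 rose.

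Folding genes of the endoplasmic reticulum split into 1 gene that rose and 7 that fell among 20 tested, with a median log2 fold change of −0.16. Of all genes 18.6% rose and 19.8% fell. The gene that rose was hsp-4 (F43E2.8, chromosome II, 7350076 to 7352593), 1 of 2 genes of the Hsp70 protein BiP in this compartment, with 1484, 1743 and 1286 CPM at 34 °C, against 173, 176 and 205 CPM at 20 °C. The other BiP gene, hsp-3, had 2183, 1605 and 2934 CPM at 34 °C, against 2614, 2233 and 2695 CPM at 20 °C (log2 fold change −0.17, adjusted p = 0.55), and it was picked for this contrast with its values in view. The sensor gene ire-1 fell to 47.5 ± 1.04 CPM at 34 °C, against 71.0 ± 0.637 CPM at 20 °C, and sel-11, a ubiquitin ligase gene of protein disposal from this compartment, had a log2 fold change of −0.48. Without replicate 1 of the 20 °C group 4 members fell in place of 7, and 13 fell with library size alone. With the block, or without replicate 2 at 34 °C, 2 members rose. By limma on log2(FPKM + 0.1) 1 member fell, and sel-11 was not called (log2 fold change −0.39, adjusted p = 0.12).

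Mitochondrial chaperone and stress genes had 4 of 14 members up and 2 down, where 18.6% of all genes rose and 19.8% fell. The Hsp60 gene hsp-60 had 960 ± 106 CPM at 34 °C and 947 ± 78 CPM at 20 °C, and the transcription factor gene atfs-1, which drives the mitochondrial unfolded protein response, fell to 60.9 ± 8.75 CPM at 34 °C, against 85.9 ± 9.2 CPM at 20 °C (log2 fold change −0.50, adjusted p = 0.0024). Scaled by library size alone 0 members rose and 5 fell, and the log2 fold change of hsp-60 was −0.25 in place of 0.02. Without replicate 2 or 3 at 20 °C or replicate 2 at 34 °C, 1 fell.

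**Figure D2:**
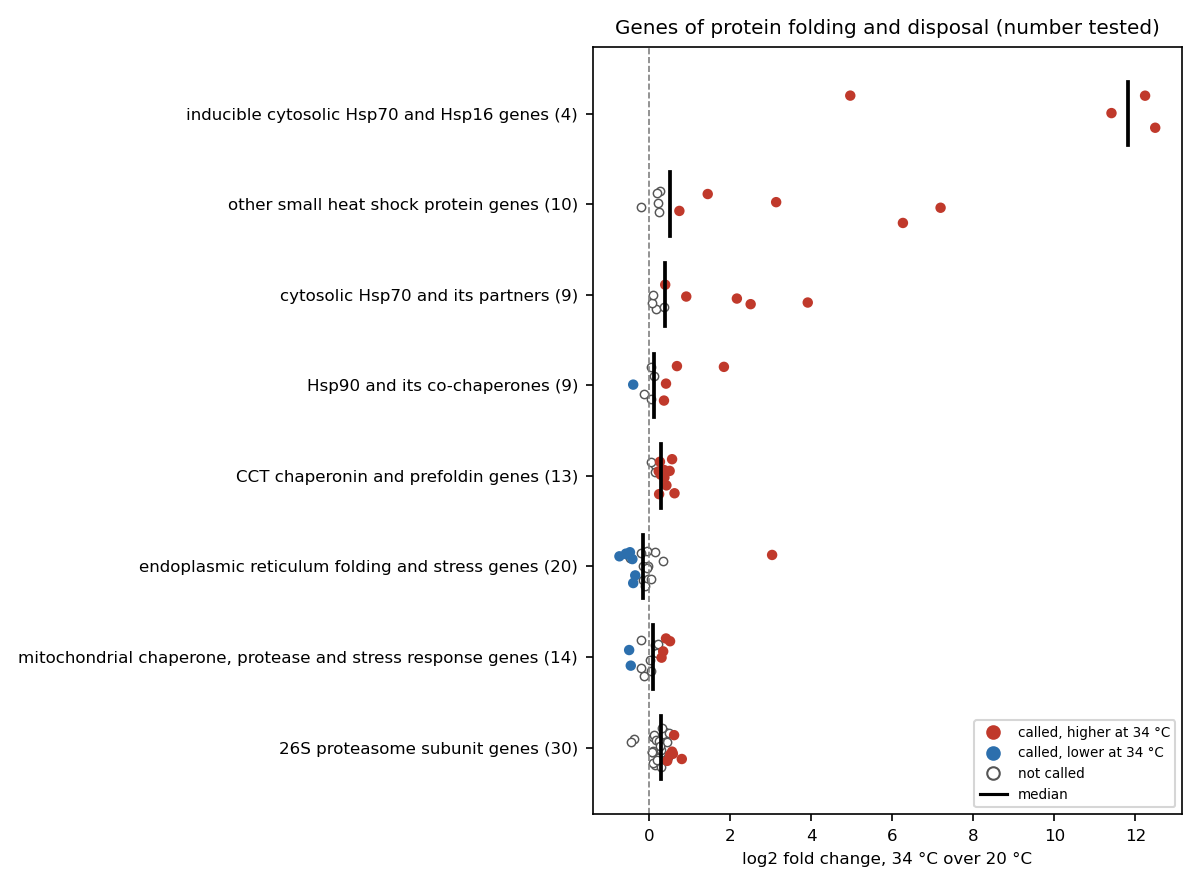
Log2 fold change, 34 °C over 20 °C, of each tested member of 8 gene lists of protein folding and disposal, 1 point per gene, filled in red or blue where the gene rose or fell, with a bar at the median of each list and a dashed line at 0. The inducible genes lie near 5 and between 11 and 13, hsp-110 and hsp-4 stand above the rest of their lists, and the medians of the other lists lie between −0.16 and 0.50.

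The autophagy receptor gene sqst-1 (T12G3.1), which carries ubiquitin-tagged protein into autophagosomes, had 213, 353 and 306 CPM at 34 °C, against 67.9, 72.3 and 78.9 CPM at 20 °C, a log2 fold change of 1.99 (SE 0.16, adjusted p = 5.2e-07). In its list of 25 autophagy genes 4 rose and 5 fell, close to the 18.6% and 19.8% of all genes, the lipid kinase gene vps-34 with a log2 fold change of 0.50 and the tether gene epg-5 with −0.94. The transcription factor gene hlh-30, the counterpart of mammalian TFEB, fell to 103 ± 21.6 CPM at 34 °C, against 162 ± 26.1 CPM at 20 °C. Without replicate 1 of the 34 °C group 3 genes of this list fell, and with library size alone 2 rose and 11 fell.

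Of 30 tested proteasome subunit genes 6 rose, close to the 18.6% of all genes, and 0 fell, with a median log2 fold change of 0.28, with replicates as a block 18 rose and 1 fell, and with library size alone 1 rose and 1 fell. The count was 1 without replicate 3 at 20 °C or without replicate 2 at 34 °C, 2 without replicate 1 at 34 °C and 12 without replicate 3 at 34 °C. The largest of the 6 rises was that of rpn-3, next to hsp-110 in the genome, with 577 ± 70.4 CPM at 34 °C and 332 ± 45.7 CPM at 20 °C. The ubiquitin gene ubq-2 rose 1.88-fold, and cul-1, the scaffold of SCF ubiquitin ligases, fell to 53.5 ± 2.8 CPM at 34 °C, against 95.4 ± 6.26 CPM at 20 °C. The gene aip-1, which encodes a proteasome-associated protein known from arsenite stress and was chosen with its values in view, had 103, 155 and 106 CPM at 34 °C, against 15.9, 16.3 and 17.5 CPM at 20 °C.

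Several of the strongest rises lay outside the chaperone lists. The chromatin remodelling gene nurf-1 (F26H11.2, chromosome II, 14390325 to 14407829), whose product is the large subunit of the NURF complex, had 6970, 7369 and 5306 CPM at 34 °C, against 215, 204 and 230 CPM at 20 °C. This was 30.3-fold (log2 fold change 4.92, SE 0.16, adjusted p = 4.4e-11), and nurf-1 gained 6332 CPM, next to hsp-90 with 6393 CPM among all genes called. R107.5 (chromosome III, 9051514 to 9053708) had 3772, 2908 and 3120 CPM at 34 °C, against 27.1, 25.6 and 39.98 CPM at 20 °C, which is 106-fold. In both genes each 34 °C library lay far above each 20 °C library, and nurf-1 took 0.429 to 0.584% of all fragments at 34 °C.

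On the scale per length, the FPKM values of the authors (fragments per kilobase of transcript per M fragments), nurf-1 averaged 4478 at 34 °C and 70.3 at 20 °C, a larger ratio than that of its fragments. The authors' deposited table gives it a log2 ratio of 6.05, against 4.92 from the counts, and it gives scp-1 5.77, against 4.64. For hsp-110, hsp-90 and R107.5 the authors' deposited table has 4.04, 1.97 and 6.86, against 3.91, 1.84 and 6.72 from the counts. A gap of over 1 log2 unit thus separated the scales for nurf-1 and scp-1 but not for those 3 genes. Whether the transcripts of these genes differed in length between temperatures was not tested.

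Some further strong risers, R11A5.3 and ZC21.10, had under 1 CPM at 20 °C, while Y43F8B.2 and dpy-17 lay higher there. R11A5.3 (chromosome I, 7862837 to 7863548) had 471, 617 and 326 CPM at 34 °C, against 0.167, 0.364 and 0.643 CPM at 20 °C, and ZC21.10 (chromosome III, 8529146 to 8531056) had 154, 91.9 and 186 CPM, against 0.335, 0.219 and 0.841 CPM. Y43F8B.2, in a locus of 4 genes on chromosome V, had 1402, 2063 and 1286 CPM at 34 °C, against 37.6, 40.6 and 59.4 CPM at 20 °C. The files and annotation used here give no function for these 3 genes, and their log2 fold changes were 10.25, 8.33 and 5.11. A collagen of the cuticle, encoded by dpy-17 (F54D8.1), had 113.2, 68.0 and 97.3 CPM at 34 °C, against 2.93, 3.21 and 2.13 CPM at 20 °C. Among related genes, 3 of 19 body-shape collagens and 18 of 114 tested collagen genes rose and 0 fell in either list, close to the 18.6% of all genes. Without replicate 3 at 34 °C 10 of the collagen genes rose, and with library size alone 14 rose and 2 fell. Of the collagen genes 2 fell without replicate 3 at 20 °C or replicate 2 at 34 °C, and 4 with the block.

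Several of the remaining strong rises were small in level, though not that of scp-1. The genes kreg-1 (F53A9.2) and C25F9.2 had 13.2, 13.97 and 27.7 CPM and 9.69, 65.7 and 12.31 CPM at 34 °C, against at most 0.692 and 0.445 CPM at 20 °C. The MATH and BTB domain gene bath-34 had 15.9, 22.6 and 10.2 CPM at 34 °C, against 0.712, 0.546 and 0.594 CPM at 20 °C, and the glucuronosyltransferase gene ugt-14 had 10.9 ± 2.93 and 0.510 ± 0.302 CPM. The sterol sensor gene scp-1 (D2013.8), a relative of mammalian SCAP, which escorts the lipid regulator SREBP, had 1287, 1480 and 1362 CPM at 34 °C, against 51.7, 55.4 and 58.6 CPM at 20 °C. This was 24.9-fold, with log2 fold changes of 4.58 to 4.68 when single libraries were left out.

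The yolk protein gene vit-2 (C42D8.2), a marker of adult hermaphrodites, had 11, 16 and 434 fragments at 34 °C and none at 20 °C. Against a floor of 3 fragments over the 20 °C group it was at least 243.5-fold higher, and at least 18.9-fold higher without replicate 3 at 34 °C. The same library held the high values of hsp-16.21 and sip-1 above and that of the metallothionein gene mtl-1, with 1.25, 1.02 and 19.6 CPM at 34 °C, against 0.293, 0.146 and 0.396 CPM at 20 °C. Of 35 yolk, sperm and adult collagen genes 5 passed the filter on low counts and 3 of these rose, where 18.6% of all genes rose. Without a fragment in N2 at 20 °C, vit-2 could not pass through those libraries, so the count is no independent support for a rise. The summed level of the 5 genes ran from 3.12 to 44.8 CPM over the 34 °C libraries and from 0.990 to 2.68 CPM over the 20 °C libraries. The part of adult animals or of age differences in these values was not tested.

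Genes next to the strongest risers were examined as a set chosen after the values were seen, made of the 12 genes at least 8-fold higher with at least 100 CPM at 34 °C. Neighbours that were themselves among the 12 were left out: ttll-12 downstream, and hsp-16.2, hsp-16.41 and scp-1 upstream. All of these rose. Of the other 11 genes lying next downstream that were tested, 7 rose and 0 fell, with a median log2 fold change of 2.26. Of the other 9 tested genes lying next upstream, 4 rose and 0 fell, with a median of 0.34, where 18.6% of all genes rose. Downstream of R107.5 on the same strand lies ikke-1 (R107.4), with 156, 206 and 177 CPM at 34 °C, against 36.4, 37.6 and 38.8 CPM at 20 °C. Downstream of R11A5.3 lies nud-2 (R11A5.2), a gene of a dynein regulator, with 171, 221 and 177 CPM at 34 °C, against 33.5, 36.9 and 38.8 CPM at 20 °C. Each 34 °C library lay above each 20 °C library in both genes. By the annotation, ikke-1 lies 896 bases from R107.5 and nud-2 3112 bases from R11A5.3, and nud-2 shares its locus with 1 other gene.

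The same held next to further risers. The tubulin ligase-like gene ttll-12 (D2013.9) starts 101 bases below scp-1 on the same strand and had 991 ± 97.1 CPM at 34 °C and 114 ± 2.65 CPM at 20 °C. Next to the hsp-16 pair, the chemoreceptor genes srt-42 and srt-41 had log2 fold changes of 5.36 and 4.51, and uggt-2, which overlaps the locus of hsp-70 on the opposite strand, had 3.73. With ttll-12 left out of these counts as 1 of the 12 risers, 6 of the 8 tested downstream neighbours on the same strand rose. Of the 3 on the opposite strand 1 rose. Of the 6 downstream neighbours that lay in another Cuffdiff locus than their riser, 4 rose, with a median of 1.54. The sources used here do not say whether counting used strand, so reads that run past the end of a riser cannot be told apart from transcripts of its neighbour. Upstream on the opposite strand of R107.5, the microtubule gene cls-2 (R107.6) had 250 ± 42.8 CPM at 34 °C and 85.9 ± 1.74 CPM at 20 °C. The neighbours of ZC21.10, Y43F8B.2 and hsp-4 on both sides did not pass the test.

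Of 29 tested regulators of stress responses 3 rose and 6 fell, the falls close to the 19.8% of all genes, and the counts were 2 up and 14 down with library size alone and 5 up and 8 down with the block. The gene of HSF-1 itself, hsf-1 (Y53C10A.12, chromosome I, 11953502 to 11961977), had 31.5, 30.8 and 38.5 CPM at 34 °C, against 37.9, 41.96 and 38.5 CPM at 20 °C. Replicates 1 and 2 were lower and replicate 3 was level, and the difference missed the threshold (log2 fold change −0.23, SE 0.09, adjusted p = 0.058), while with replicates as a block the adjusted p was 0.022, and without replicate 3 at 34 °C it was 0.0062. It was 0.044 with no filter on low counts and 0.0036 with library size alone, where the log2 fold change was −0.50. The bZIP gene zip-10 (T27F2.4), in a locus of 2 genes, had 23.5, 24.9 and 32.1 CPM at 34 °C, against 2.302, 2.04 and 1.58 CPM at 20 °C. The bZIP gene cebp-1 rose 1.94-fold, and hif-1, the hypoxia factor gene, fell to 228 ± 29.8 CPM at 34 °C, against 341 ± 7.98 CPM at 20 °C.

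Most genes of the ribosome rose, where 18.6% of all genes rose and 19.8% fell. Among 71 tested cytosolic ribosomal protein genes 66 rose and 0 fell, with a median log2 fold change of 0.80, and 61 rose and 0 fell with library size alone. Their share of all fragments was 20.0 to 21.5% at 34 °C and 13.9 to 15.1% at 20 °C. For example rps-8 had 8903, 8438 and 8246 CPM at 34 °C, against 4593, 4295 and 4277 CPM at 20 °C, and rpl-39, the gene of a short protein of the large ribosomal subunit, had 2178 ± 234.7 CPM at 34 °C and 1061 ± 127 CPM at 20 °C. The mitochondrial ribosome followed with 54 of 70 genes up and 0 down and a median of 0.47, and respiratory chain and ATP synthase genes with 26 of 36 up and 0 down and a median of 0.39. Scaled by library size alone these were 31 up and 2 down, and 11 up and 2 down.

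Of 31 tested initiation and elongation factor genes 21 rose, where 18.6% of all genes rose. Another 4 fell, a share below the 19.8% of all genes. With library size alone 10 rose and 6 fell. The elongation factor subunit genes eef-1G and eef-1B.1 had log2 fold changes of 0.66 and 0.69, and iff-1, an initiation factor 5A gene, had 0.77. The scaffold gene ifg-1 (eIF4G) fell to 419 ± 29.5 CPM at 34 °C, against 576 ± 20.1 CPM at 20 °C, and the helicase gene inf-1 (eIF4A), which ifg-1 recruits to the cap, fell to 657 ± 39.2 CPM, against 898 ± 81 CPM. The elongation factor gene eef-1A.2 had 2124, 2478 and 2731 CPM at 34 °C, against 3418, 3161 and 3097 CPM at 20 °C, and its loss of 781 CPM exceeded that of the other genes called. Antioxidant genes had 10 of 17 members up and 0 down, where 18.6% of all genes rose and 19.8% fell. The rises were led by trx-2 and prdx-3 with 0.73 each, and with library size alone 3 rose and 0 fell.

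Many neuronal genes were lower at 34 °C. Of 33 tested neuron markers 21 fell and 3 rose, with a median log2 fold change of −0.53, against 19.8% of all genes that fell. The pan-neuronal Ras regulator gene rgef-1 (F25B3.3) had 5.3, 6.55 and 4.62 CPM at 34 °C, against 15.9, 17.01 and 18.4 CPM at 20 °C. The choline transporter gene cho-1 (C48D1.3) had 5.23, 4.96 and 6.29 CPM at 34 °C, against 13.02, 13.7 and 17.8 CPM at 20 °C, and the glutamate transporter gene eat-4 had 9.01 ± 1.22 and 19.8 ± 1.08 CPM. The groups did not overlap in any of these 3 genes, and their log2 fold changes were −1.63, −1.43 and −1.14.

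The 3 neuron markers that rose are all known from touch receptor neurons. The β-tubulin gene mec-7 (ZK154.3) had 419, 312 and 354 CPM at 34 °C, against 204, 165 and 179 CPM at 20 °C, and the tubulin acetyltransferase gene mec-17 (F57H12.7) had 289, 223 and 187 CPM, against 149, 123 and 124 CPM. The α-tubulin gene mec-12 rose by less (log2 fold change 0.51, adjusted p = 0.031). Without replicate 1 or 3 at 34 °C or replicate 2 or 3 at 20 °C, the adjusted p of mec-12 was 0.12, 0.054, 0.091 and 0.10, and 0.22 with library size alone.

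Families of neuronal receptors, channels and peptides leaned the same way. Of 42 tested ligand-gated channel genes 23 fell and 1 rose, and of 40 tested potassium channel genes of the twk family 16 fell and 2 rose. The channel genes lgc-47 and twk-7 had 3.43 ± 0.676 and 8.43 ± 1.78 CPM at 34 °C, against 14.1 ± 0.635 and 31.1 ± 2.33 CPM at 20 °C. Of 92 unc genes, a class named for uncoordinated movement, 42 fell and 5 rose, among them the neuronal transcription factor genes unc-86 and unc-3 with log2 fold changes of −1.82 and −1.78. The unc class is not neuronal alone. It also holds muscle markers such as unc-52 and the BAG domain gene unc-23, and it shares members with the neuron markers, so its count is not separate from theirs. Neuropeptide-like genes had 33 of 76 down and 6 up and insulin-like genes 11 of 23 down and 4 up. By contrast FMRFamide-like genes had 7 of 30 down and 7 up, near the 19.8% and 18.6% of all genes. With replicates as a block 13 neuropeptide-like genes rose and 37 fell, and with library size alone 2 FMRFamide-like genes rose and 13 fell. That scaling gave 0 up and 25 down for ligand-gated channel genes, 1 and 20 for twk genes and 2 and 63 for unc genes, and the block gave 2 and 24, 4 and 22, and 9 and 47. The 1 ligand-gated channel gene that rose was not called without replicate 1 or 2 at 20 °C or replicate 3 at 34 °C. In that last family flp-25 had 3.14, 3.07 and 2.88 CPM at 34 °C, against 11.3, 10.6 and 10.6 CPM at 20 °C, and flp-1 had 138 ± 7.08 and 83.5 ± 4.57 CPM.

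**Figure D3:**
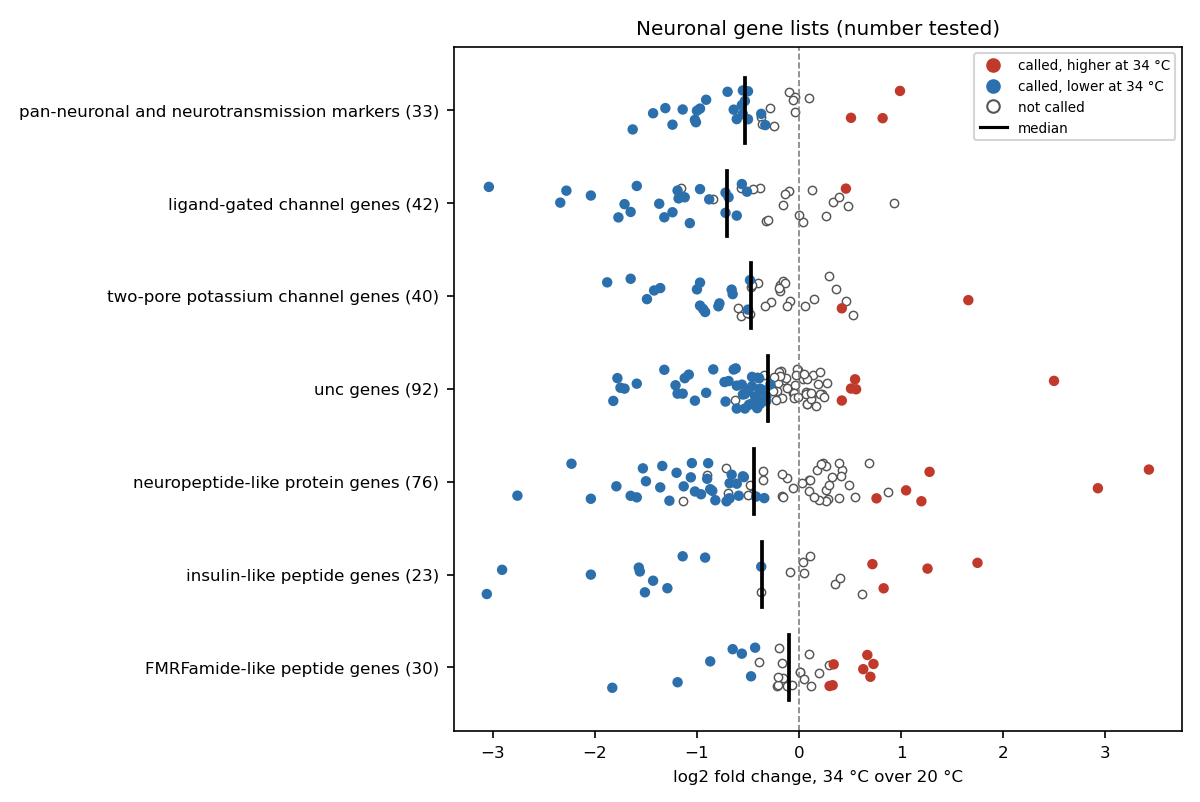
Log2 fold change, 34 °C over 20 °C, of each tested member of 7 gene lists, 1 point per gene, filled in red or blue where the gene rose or fell, with a bar at the median of each list and a dashed line at 0. The unc list is a class of names that also holds muscle markers and shares members with the neuron markers. Filled points lie mostly below 0 in the neuron marker, channel, unc and neuropeptide-like lists, while the FMRFamide-like list has 7 called on each side.

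Markers of other tissues moved less evenly, and their counts are read against the 18.6% of all genes that rose and the 19.8% that fell. Of 27 tested muscle markers 9 rose and 2 fell, among them the troponin genes tni-1 and pat-10 with log2 fold changes of 0.70 and 0.67. Without replicate 2 at 20 °C or replicate 3 at 34 °C 5 muscle markers rose, and with library size alone 2 rose and 3 fell. Without replicate 1 at 20 °C 0 muscle markers fell, and without replicate 1 at 34 °C 1 fell. Intestine markers had 2 of 27 up and 4 down, neither share above that of all genes. The transporter gene pgp-1 was at 34.98 ± 4.31 CPM at 34 °C and 64.8 ± 11.4 CPM at 20 °C. Without replicate 3 at 34 °C 9 intestine markers fell, 2 fell without replicate 3 at 20 °C or without replicate 1 or 2 at 34 °C, and 7 fell with replicates as a block. The count of intestine markers that rose was 1 without replicate 2 or 3 at 20 °C or any 1 replicate at 34 °C, and with library size alone 0 rose and 9 fell. Hypodermis markers had 0 of 18 up and 4 down, the falls near the share of all genes. Among these was the fate gene lin-26 with 86.7 ± 19.8 CPM at 34 °C and 167 ± 25.14 CPM at 20 °C. With the block 3 hypodermis markers rose and 6 fell, and 1 rose without replicate 3 at 20 °C. Pharynx markers had 0 of 17 up and 1 down, which was 0 without replicate 2 or 3 at 20 °C or replicate 1 at 34 °C and 2 with library size alone. Germline markers had 5 of 27 up and 4 down, near the shares of all genes, 3 up without replicate 3 at 20 °C, and 2 up and 7 down with library size alone. Summed levels of the neuron list were 2314 to 2582 CPM at 34 °C and 2658 to 2805 CPM at 20 °C.

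The steepest single falls lay elsewhere. The tetraspanin gene tsp-7 (T23D8.2), in a locus of 2 genes, had no fragment in any 34 °C library, against 337, 414 and 384 fragments at 20 °C. The aspartyl protease gene asp-13 (F28A12.4, chromosome V, 8641469 to 8643203) had 26.01, 33.2 and 19.7 CPM at 34 °C, against 302, 346 and 227 CPM at 20 °C, and K06A4.7 had 5.58, 3.22 and 7.22 CPM, against 55.8, 50.3 and 53.4 CPM. The folate transporter gene folt-1 had 3.60 ± 0.652 CPM at 34 °C and 28.0 ± 2.24 CPM at 20 °C, and rgs-4, a gene of a G protein regulator, 3.47 ± 0.178 and 18.4 ± 1.34 CPM. In these 5 genes each 34 °C library was below each 20 °C library. The genes T11G6.3, M117.1, C25E10.4 and lron-5 had log2 fold changes between −2.93 and −2.45. For tsp-7 the fall was at least 261.5-fold against a floor of 3 fragments over the 34 °C group. The kinase gene jnk-1 and the growth factor gene let-756, both chosen with their values in view, had 5.18 ± 0.285 and 8.58 ± 3 CPM at 34 °C, against 23.8 ± 1.41 and 35.4 ± 4.03 CPM at 20 °C.

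A few genes were seen at one temperature alone. With estimates valid in all 6 libraries, 8 genes had at least 10 fragments in each 34 °C library and none at 20 °C, while tsp-7 alone showed the reverse. Besides vit-2, these 8 include the receptor gene nhr-241, with 28, 70 and 45 fragments, the kinase gene kin-6, with 23, 38 and 19, and the F-box gene fbxb-117, with 13, 34 and 11, all 3 chosen after their values were seen. With at least 1 fragment in each library of a group as the bound, 202 genes were seen at 34 °C alone and 54 at 20 °C alone. The number of genes with a fragment was 16495 to 17228 per 34 °C library and 16344 to 16637 per 20 °C library.

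Families of metabolism and gene control split, and their counts are read against the 18.6% of all genes that rose and the 19.8% that fell. Of 29 tested histone genes, out of 70, 14 rose and 1 fell, with a median log2 fold change of 1.08, and 0 fell without replicate 1 or 2 at 20 °C or replicate 1 at 34 °C. The histone gene his-41 had 463 ± 75.7 CPM at 34 °C and 171 ± 1.81 CPM at 20 °C. Selection of polyadenylated RNA catches most histone transcripts poorly, as these lack a tail. F-box genes had 30 of 140 tested members up, close to the 18.6% of all genes, and 8 down. MATH domain genes had 17 of 55 up and 4 down. Nuclear hormone receptor genes had 14 of 222 up and 40 down, the falls close to the 19.8% of all genes. With library size alone F-box genes had 19 up and 13 down, MATH domain genes 6 up and 9 down, and receptor genes 5 up and 77 down. Without replicate 2 at 20 °C 9 receptor genes rose, and with the block 22 rose. Without replicate 1 or 3 at 20 °C 5 F-box genes fell, and without replicate 2 at 34 °C 3 fell. Glucuronosyltransferase genes had 2 of 64 up and 14 down, the falls close to the 19.8% of all genes. These counts were 2 and 28 with replicates as a block, 1 and 21 without replicate 3 at 34 °C, and 2 and 24 with library size alone. The level of ugt-16 fell to 34.7 ± 5.44 CPM at 34 °C, against 126 ± 4.51 CPM at 20 °C. Patched-related genes had 0 of 24 up and 6 down, the falls near the 19.8% of all genes. These counts were 0 and 15 with the block, and 0 and 10 with library size alone. The level of ptr-5 was 10.98 ± 0.256 CPM at 34 °C and 31.5 ± 1.58 CPM at 20 °C.

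Of 29 tested lipid genes 9 rose and 3 fell, where 18.6% of all genes rose and 19.8% fell. The desaturase genes fat-2 and fat-1 had 1668 ± 246 and 1138 ± 145 CPM at 34 °C, against 978 ± 83.1 and 696 ± 61.4 CPM at 20 °C. The elongase genes elo-5 and elo-6, which make branched-chain fatty acids, had 175 ± 32.8 and 301 ± 73.4 CPM at 34 °C, against 337 ± 69.8 and 517 ± 78.6 CPM at 20 °C. Without replicate 3 at 34 °C 6 lipid genes fell, with the block 7, and with library size alone 5 rose and 8 fell. Splicing genes had 11 of 30 up and 1 down, 6 up without replicate 2 at 20 °C, 7 up without replicate 1 at 34 °C, and with library size alone 0 up and 5 down. The 1 that fell in the main test and with library size alone was prp-8, the core of the spliceosome, with 304 ± 26.4 CPM at 34 °C and 522 ± 40 CPM at 20 °C.

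**Figure D4:**
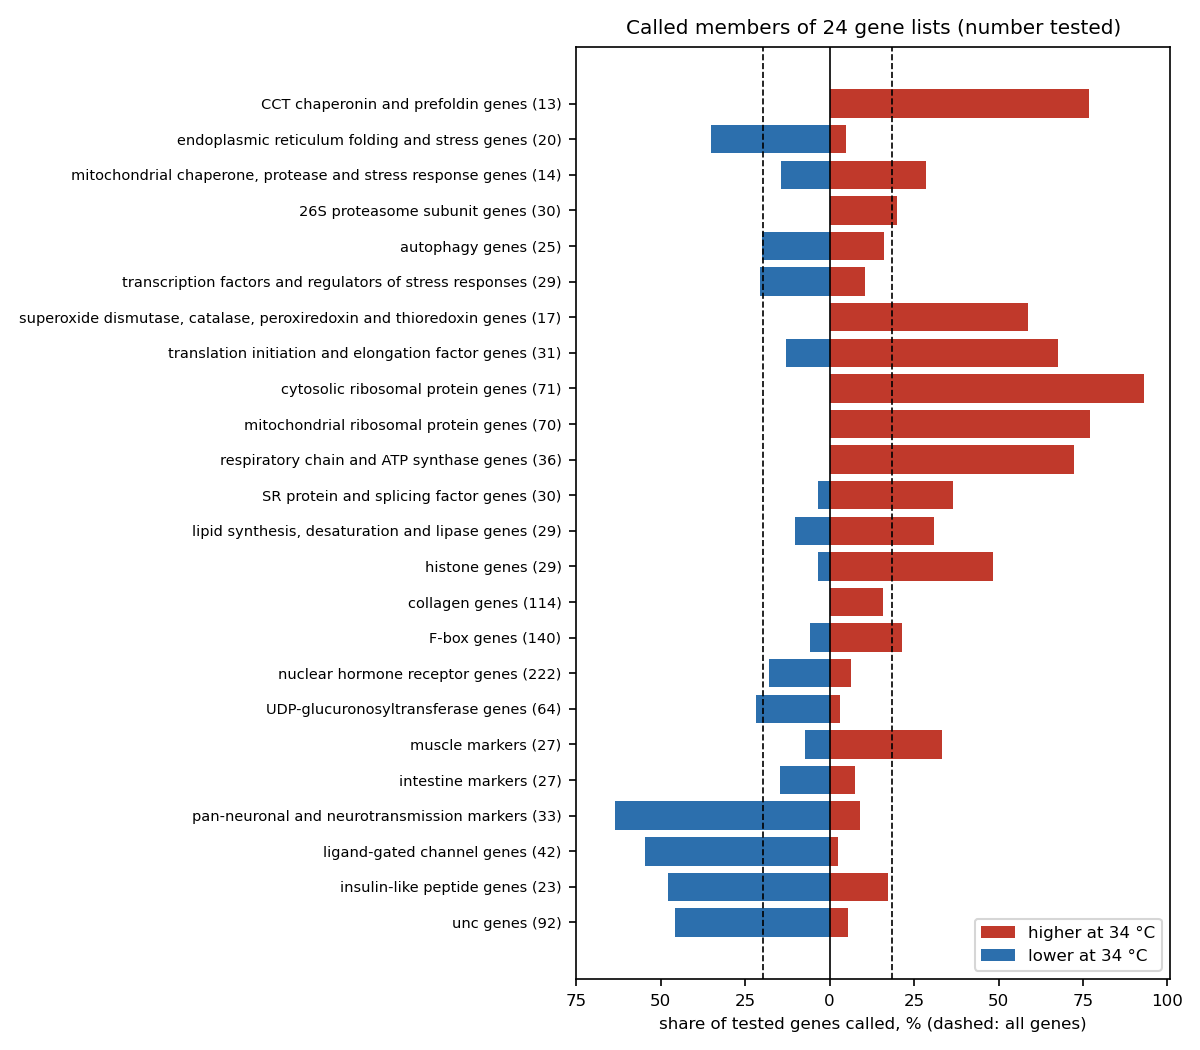
Share of tested members of 24 gene lists that rose (bars to the right) or fell (bars to the left) at 34 °C against 20 °C, in percent, with the number tested beside each list and dashed lines at 18.6% and 19.8%, the shares of all genes. Ribosomal, mitochondrial ribosomal, chaperonin and respiratory lists reach furthest to the right, and neuron marker, ligand-gated channel and insulin-like lists furthest to the left.

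Transcript length moved with the direction of change over the whole table. Sorted by exonic length into 5 bins of like size, the shortest genes (median 605.5 bases) had a median log2 fold change of 0.29 and the longest (median 3166 bases) one of −0.20. In the shortest bin 29.8% rose and 10.5% fell, and in the longest 8.79% rose and 32.8% fell. Each pair of same-numbered libraries gave that order, with 0.29, 0.23 and 0.13 in the shortest and −0.28, −0.20 and −0.13 in the longest bin. Without ribosomal protein genes the shortest bin had 0.27. The lists above differ in length, with a median of 534 bases for ribosomal protein genes, 755 for mitochondrial ribosomal genes, 1967 for neuron markers, 2560 for unc genes and 1396 for all genes tested. Neuropeptide-like genes, of which 33 fell and 6 rose, had a median of 533 bases. The summed FPKM of a library was 1.72 to 1.746 M at 34 °C and 1.129 to 1.166 M at 20 °C. The part of length in the changes of the lists was not tested.

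**Figure D5:**
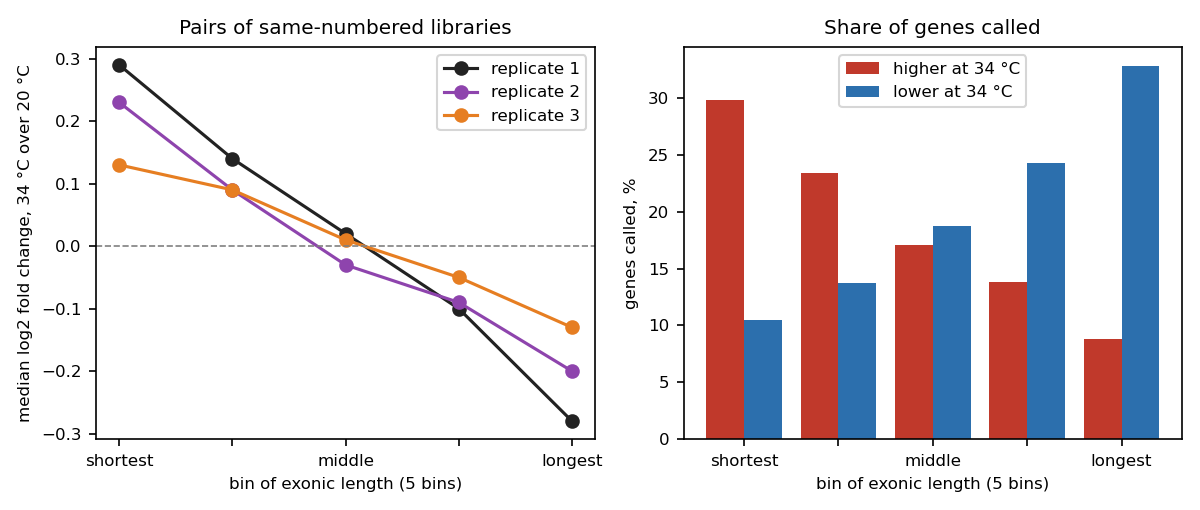
Left, median log2 fold change of the genes in each of 5 bins of exonic length, shortest to longest, for each pair of same-numbered 34 °C and 20 °C libraries. Right, the share of genes in each bin that rose and that fell, in percent. The medians fall from the shortest to the longest bin in all 3 pairs, and the share that rose is 29.8% in the shortest and 8.79% in the longest bin.

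Whether the N2 responses were larger than those of hsf-1(sy441), a mutant in which the HSF-1 protein is truncated, was tested as an interaction over the 18 libraries, which called 70 genes (0.492%). Outside the chaperones, nurf-1 had a log2 fold change of 4.92 in N2 and 3.05 in the mutant, a difference of 1.87 (SE 0.20, adjusted p = 0.00014). For R107.5 the responses were 6.72 in N2 and 4.12 in the mutant, for Y43F8B.2 5.11 and 3.08, and for sqst-1 1.99 and 0.42. The neighbour of R107.5, ikke-1, differed as well, with 2.26 in N2 and 0.49 in the mutant, and so did nud-2, next to R11A5.3, with 2.38 in N2 and 0.69 in the mutant. For hsp-16.2 the responses were 12.24 in N2 and 7.30 in the mutant, a difference of 4.94 (SE 1.47, adjusted p = 0.19), and for hsp-16.41 12.49 in N2 and 6.95 in the mutant, a difference of 5.54 (SE 1.84, adjusted p = 0.23), neither called. For ZC21.10, kreg-1 and C25F9.2 the differences were 0.98 (SE 0.54), −0.08 (SE 0.66) and 0.11 (SE 0.92) and were not called, which does not show equal responses. For mec-7, rgef-1 and asp-13 the differences were 0.17 (SE 0.28), −0.56 (SE 0.22) and −0.38 (SE 0.27), also not called.

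The authors' deposited table of heat shock in N2 lists 1684 genes past their threshold, 950 higher and 734 lower at 34 °C. Of these, 1541 were tested here, and 1361 (88.3%) were called in the same direction, 179 were not called and 1 was called the opposite way. That gene was ocr-1, a channel gene chosen after its values were seen, with a log2 fold change of −0.88 here and a log2 ratio of 4.45 in the authors' deposited table. The authors' deposited table thus holds 24.9% of the genes called here. It lists 129 genes at 0 at 20 °C, hsp-16.49 and vit-2 among them, with no finite ratio.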

How the data were processed

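Polyadenylated RNA of whole animals was sequenced in 18 libraries, 3 for each of 6 groups. Reads were aligned with TopHat2 and quantified with Cuffdiff on genome build ce10, per the submitters' processing notes, and versions are not given in the sources used here. The deposited read-group table holds estimated counts of fragments per gene, made by the authors with Cuffdiff. The same deposited table holds FPKM, which the authors scaled by length and library. The log2 ratio and q-value (p-value adjusted) of the authors come from their deposited table of heat shock in N2. Estimated counts were rounded to whole fragments (92.43% were whole already). Genes with a failed Cuffdiff estimate in any library, 114 of 20389 with 6.43 to 7.75% of the fragments of N2 libraries, were left out, since failed values are listed at 0.

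Counts of all 18 libraries (16.1 to 34.7 M fragments) were filtered with filterByExpr, scaled with TMM factors (0.85 to 1.24) and tested with edgeR 4.0.16 in R 4.3.3 (glmQLFit, robust, 1 mean per group), contrast N2 at 34 °C minus 20 °C, with Benjamini-Hochberg adjustment and a threshold of 0.05. The biological coefficient of variation was 25.3%. The SE of a log2 fold change was taken from the F statistic. The interaction with hsf-1(sy441) came from the same fit. Alternatives were other scaling factors, no filter, other fits, DESeq2 1.42.0, and limma 3.58.1 on log2(FPKM + 0.1) and log2(FPKM + 1). The procedure was also run on simulated data with few changed genes, less spread than these data and no pairing of replicates. That run therefore does not show how the test performs here. The labels number the replicates. Over N2, deviations from group means correlated at 0.37, 0.77 and 0.79 between same-numbered 34 °C and 20 °C libraries, so the numbers were taken to pair them, and a fit with the replicate number as a block was run.

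Members and gene lists were chosen with earlier results of these data known. The genes named were hsf-1, the inducible Hsp70 and Hsp16 genes, the 12 largest rises and 12 largest falls with at least 10 CPM and groups apart, the 10 genes that gained and the 10 that lost most CPM, leading members of the lists, and neighbours of the largest rises. Not each gene that this rule allows is named. Cuffdiff merges overlapping genes into 1 locus, which held 3498 of the tested genes. RefSeq names matched 19879 of 20389 genes (97.5%). Coordinates are those of the deposited table in ce10, and lengths, strands and neighbours come from the WBcel235 annotation. Floors of 3 fragments cover counting error only.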

Additional observations from a re-analysis of the deposited data

Results flagged for a closer look

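The heat responses of N2 and of hsf-1(sy441) differed, by the interaction term of edgeR's quasi-likelihood test, in 22 of the genes named above. In each sentence here the value is the log2 fold change in N2 minus that in the mutant. Among chaperone genes it was 6.49 for hsp-70, 3.28 for hsp-110, 2.36 for hsp-4, 2.24 for dnj-13, 1.31 for unc-23, 1.04 for hsp-90 and 0.84 for hsp-1. Among genes outside the chaperone lists it was 4.26 for R11A5.3, 3.91 for scp-1, 3.31 for bath-34, 2.60 for R107.5, 2.25 for aip-1, 2.03 for Y43F8B.2, 1.87 for nurf-1 and 1.58 for sqst-1. Among genes lying next to strong risers it was 3.65 for srt-42, 2.71 for uggt-2, 2.66 for ttll-12, 1.77 for ikke-1, 1.69 for nud-2 and 1.61 for cls-2. For the collagen gene dpy-17 the difference was −2.58, with log2 fold changes of 5.06 in N2 and 7.64 in the mutant. These 22 calls held with library size alone, RLE factors, upper quartile factors and the replicate block. Many of the genes were named for large changes in N2, or for lying next to such genes. The N2 values behind that choice also enter the difference. The count can therefore not be read against the share of all genes called. The lean towards larger responses in N2 may follow in part from the choice and is no independent support.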

How the results depend on the processing

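The test over all 18 libraries called 5457 genes, and a fit of the 6 N2 libraries alone called 3605, with 1663 up. Scaled by library size alone, 1067 rose and 4603 fell, and the share of calls that rose was 18.8%, against 48.4%. Leaving out single libraries gave 4634 to 5514 calls, 2223 to 2628 up and 2222 to 2886 down. With the replicate block 7163 genes were called. The block ended no call of a named gene and added hsf-1 and hsp-25, and it changed no call of the 22 interactions. With library size alone 6 of the named genes changed sign, none of them called in the main test: cdc-37 (−0.23, called there with an adjusted p of 0.043), chn-1 (−0.21), hip-1 (−0.17), hsp-25 (−0.04), hsp-60 (−0.25) and sti-1 (−0.24). Near 0, leaving out single libraries gave −0.02 to 0.20 for hip-1, −0.41 to 0.02 for hsp-3, −0.04 to 0.10 for sti-1 and −0.08 to 0.11 for hsp-60, which was −0.01 with no filter. On FPKM with limma ocr-1, called lower in the main test, was not called at 1.6 with a pseudocount of 0.1 and 1.49 with 1. Among named genes that were called, eef-1A.2, hlh-30, mtl-1, ocr-1, sip-1 and vit-2 were not called in the 6 N2 libraries alone (log2 fold changes −0.39, −0.63, 4.73, −0.87, 1.46 and 10.69). On FPKM with limma eef-1A.2, inf-1, sel-11 and sip-1 were not called with either pseudocount (−0.36, −0.29, −0.39 and 1.15 with 0.1), and hsp-16.21 and vit-2 were not called with 1 (2.5 and 1.04). With limma on log2(FPKM + 0.1), 27 unc genes, 2 autophagy genes, 2 translation factor genes, 3 F-box genes, 1 mitochondrial chaperone gene and 0 muscle markers and histone genes fell, 5 muscle markers, 3 unc genes, 1 intestine marker, 10 proteasome genes and 5 stress regulators rose. DESeq2 gave 10 up and 1 down for proteasome genes, 5 up for stress regulators, 8 up for unc genes and 2 up for ligand-gated channel genes. Upper quartile factors gave 10 up and 1 down for proteasome genes and 0 pharynx markers down. DESeq2 gave no adjusted p for hsp-16.2 and hsp-16.41. The causes were not tested. Depth limits genes under about 10 fragments, such as hsp-16.49.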
